A study of Homo sapiens with 4 samples.

Results

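The genes of the NRF2 pathway and of cellular antioxidant defence were examined in MDA-MB-231 Fluc cells. The 10 genes were chosen by symbol, and all 10 were among the 13957 genes of the deposited RNA-seq table: NFE2L2, KEAP1, HMOX1, NQO1, GCLC, GCLM, TXNRD1, SRXN1, SOD2 and CAT. The parent line, MDA-MB-231, came from a breast cancer of the triple-negative type, and the Fluc derivative carries a luciferase gene for imaging in animals. In the series, 2 samples were treated with 50 μM cordycepin, an adenosine analogue, and 2 with the vehicle DMSO, each for 2 h. RNA was depleted of ribosomal RNA and sequenced as stranded 75 bp paired-end libraries.

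The table holds 1 level per gene, a log2 CPM (read counts scaled to the size of the library) for which no treatment is named and which is read here as the authors' mean over the libraries of both treatments, and 0 columns of values per sample. Each value below is therefore a level averaged over cordycepin and DMSO, without an SD, and the depth of each library is unknown. The other measurements of the table are the authors' own comparison of the treatments. They were not used, so no difference between cordycepin and DMSO is given for any gene.

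NRF2, the protein encoded by NFE2L2, is a transcription factor that is kept low in resting cells by KEAP1, an adaptor that presents it to a ubiquitin ligase built on CUL3. When oxidants or electrophiles modify cysteines of KEAP1, NRF2 accumulates, pairs with small MAF proteins and binds antioxidant response elements in its target genes. Among these targets are enzymes of glutathione synthesis, of the thioredoxin system, of quinone reduction and of haem breakdown. SOD2 and CAT encode enzymes that remove superoxide and hydrogen peroxide, and they complete the group.

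The core of the antioxidant response element, TGACNNNGC, was searched on both strands of RefSeq promoter windows of GRCh38.p14, from 250 bases before to 50 bases after each annotated start. Windows were found for 9 of the 10 genes, 15 in all, and not for HMOX1. Cores were found in 4 windows, those of GCLM, KEAP1 and TXNRD1, 6 cores in all. They are shown because this element is the sequence through which NRF2 acts on its targets. Each is printed 5′ to 3′ on the strand that carries it, with the core in capitals and 10 flanking bases on each side in lower case.
GCLM: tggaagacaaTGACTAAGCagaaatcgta
KEAP1, opposite strand: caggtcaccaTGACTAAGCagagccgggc
KEAP1, gene strand: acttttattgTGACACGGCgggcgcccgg
TXNRD1, inner start: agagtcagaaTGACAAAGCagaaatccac
TXNRD1, outer start, gene strand: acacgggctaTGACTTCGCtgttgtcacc
TXNRD1, outer start, opposite strand: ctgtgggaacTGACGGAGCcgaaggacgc

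The GCLM core lies on the plus strand of chromosome 1 at 93909456 to 93909464, and its outer end is 34 bases before the annotated start. GCLM is transcribed from the minus strand. The first KEAP1 core, on the plus strand of chromosome 19 at 10502794 to 10502802, has the same 9 letters as that of GCLM and begins 31 bases before the start. The other KEAP1 core lies on the minus strand at 10502817 to 10502825, 54 bases before it. Both are in the inner of 2 KEAP1 windows, and the outer window holds none. TXNRD1 has 2 windows as well, and both hold cores. The core of the inner window is on the minus strand of chromosome 12 at 104286930 to 104286938, 102 bases before that start. The outer window holds a core on the plus strand at 104215680 to 104215688, 99 bases before the start, and another on the minus strand at 104215771 to 104215779, which ends on the annotated first base. The windows of NFE2L2, NQO1, GCLC, SRXN1, SOD2 and CAT do not contain these letters. Sequence outside the windows was not searched, so an element farther from the start would have been missed, and these genes cannot be said to lack one. Of all 35116 promoter windows, 13.3% hold the core, and by gene it was found for 3 of 9 members (33.3%) and for 19.5% of the 9764 genes of the table with a window. A match describes the letters of the window only, and 4 of the 9 genes have more than 1 window and so more sequence in which to find one.

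**Figure D1:**
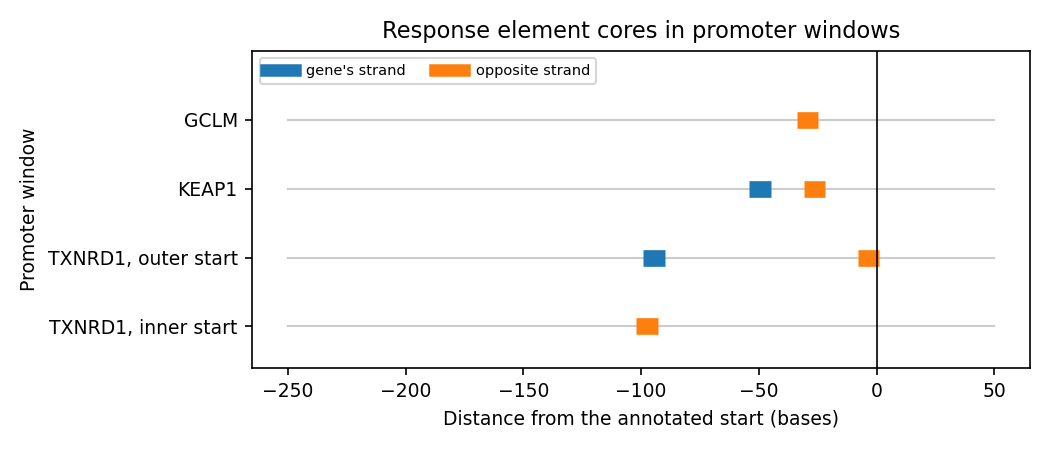
Positions of the TGACNNNGC cores in the 4 promoter windows that hold one, as distance from the annotated start in bases, with windows from 250 bases before to 50 bases after it. Blue marks cores on the strand of the gene and orange cores on the opposite strand; the GCLM core and both KEAP1 cores begin within 54 bases of the start.

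To compare genes, the CPM was divided by the length of the canonical transcript in GENCODE and expressed on the log2 scale, as log2 CPM per kb. Each gene was then ranked among the 13930 genes of the table with a length, and its percentile is the share of these genes at or below its level. The median of the table was 3.04 log2 CPM per kb. From the highest to the lowest, the order of the 10 genes was TXNRD1, NQO1, KEAP1, NFE2L2, GCLM, CAT, GCLC, SOD2, HMOX1 and SRXN1. They covered 6.19 on the log2 scale, a 72.9-fold range, and with the union of exons the log2 difference of TXNRD1 from SRXN1 was 5.39. With canonical lengths, there were 6 genes at or above percentile 75, 4 between percentile 25 and the median, and 0 below percentile 25. Of the 6, GCLM and CAT were close to the bound, and among protein-coding genes only they were at percentiles 74.9 and 74.5. Each of the 10 genes had a log2 CPM above 3, whereas the lowest in the table was 0.56. Most genes of the table also exceed 3. Without a length correction HMOX1 and SRXN1 were at percentiles 32.0 and 29.7. As no value per library is at hand, whether neighbours in this order differ by more than the spread between libraries cannot be stated. GCLM and CAT were 0.024 apart, GCLC and SOD2 0.045, SOD2 and HMOX1 0.081 and KEAP1 and NFE2L2 0.18, while the other steps were between 0.51 and 1.67.

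**Figure D2:**
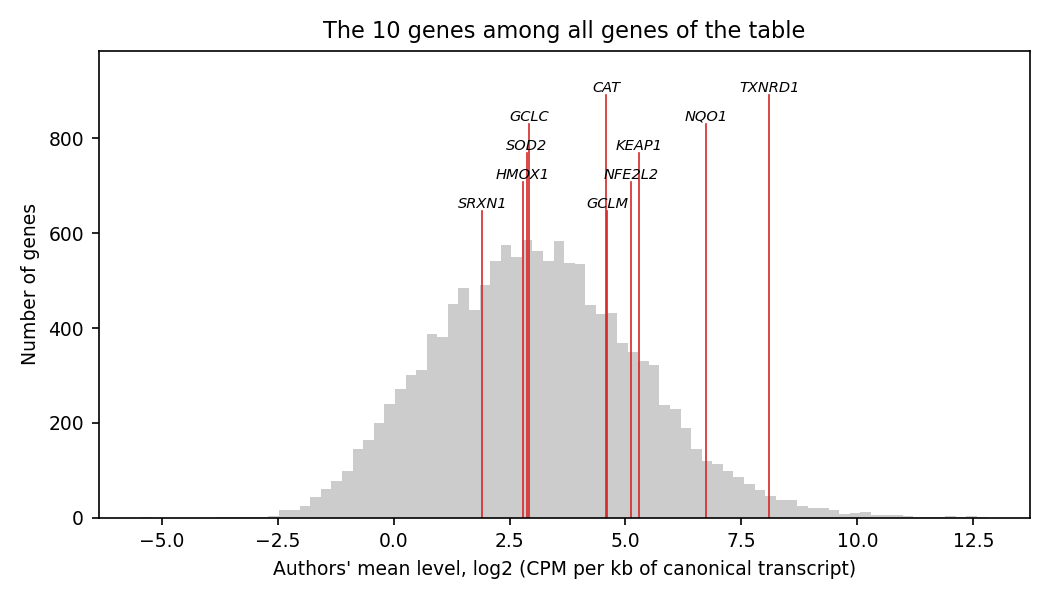
Histogram of the authors' mean level of the 13930 genes with a length, in log2 CPM per kb of canonical transcript, against the number of genes per bin. Red lines mark the 10 genes, of which TXNRD1 and NQO1 lie in the upper tail and GCLC, SOD2, HMOX1 and SRXN1 lie below the median of 3.04.

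The sensor KEAP1 was above the transcription factor, by a margin that depended on the length used. NFE2L2 (ENSG00000116044, chromosome 2, 177227595 to 177392697, minus strand, GRCh38) had a mean of 6.40 log2 CPM, or 5.11 log2 CPM per kb, at percentile 81.9. KEAP1 (ENSG00000079999, chromosome 19, 10486125 to 10503558, minus strand) had 6.65 log2 CPM, or 5.29 log2 CPM per kb, at percentile 83.8. The position of NFE2L2 depends on its gene model more than that of any other member when canonical and union lengths are compared. GENCODE gives it 65 transcripts, whose exons together cover 14975 bases, 6.12 times the canonical 2446 bases. With this union NFE2L2 fell to 2.50 log2 CPM per kb and percentile 52.1, from place 4 to place 7 among the 10 genes. With its longest transcript it had 4.05 log2 CPM per kb. The authors' table gives NFE2L2 5671 bases, fewer than this union, and with that length it was at percentile 75.2. KEAP1, with 10 transcripts, stayed at place 3 with the union, at percentile 86.6. The log2 difference of KEAP1 from NFE2L2 was 0.18 with canonical lengths, 1.19 with the longest transcripts and 2.31 with the union of exons.

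Around this pair, 11 of 12 other genes, regulators, partners and relatives of NRF2, were in the table. BACH2 was not among its genes. The median of the 11, with the relatives NFE2L1 and NFE2L3 counted, was 3.91 log2 CPM per kb, and 8 were above the median of the table. The highest were NFE2L1, a relative of NFE2L2, at 5.89, SQSTM1, an autophagy receptor that can sequester KEAP1, at 5.72, and NFE2L3, another relative, at 5.55 log2 CPM per kb. The lowest were MAFF, a small MAF partner of NRF2, at 2.50, BACH1, a repressor that competes for the same elements, at 2.08, and BTRC, a substrate adaptor of a second ubiquitin ligase, at 1.94 log2 CPM per kb. The log2 difference of NFE2L2 from NFE2L1 was -0.78 with canonical lengths, -1.84 with the longest transcripts and -3.11 with the union of exons. From NFE2L3 it was -0.43, -1.49 and -2.84 in the same order, and NFE2L2 was the lowest of the 3 relatives with the canonical, longest-transcript and union lengths alike.

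Glutathione is made from its amino acids in a first, limiting step by a ligase of which GCLC is the catalytic and GCLM the modifier subunit. GCLM (ENSG00000023909, chromosome 1, 93885199 to 93909456, minus strand) had 6.89 log2 CPM, or 4.61 log2 CPM per kb, at percentile 75.7. GCLC (ENSG00000001084, chromosome 6, 53497341 to 53616970, minus strand) had 4.84 log2 CPM, or 2.92 log2 CPM per kb, at percentile 47.9. The modifier subunit was thus 3.23-fold above the catalytic subunit per kb, a log2 difference of 1.69 that was also 1.69 with the longest transcripts and rose to 2.73 with the union of exons. These are levels of mRNA and say nothing of the amounts of the 2 proteins. Of 18 further glutathione genes, 15 were in the table, and 14 of these were above its median. GSTP1, a glutathione transferase, had 8.50 and GPX4, the peroxidase of lipid hydroperoxides, 7.86 log2 CPM per kb, and between them was GPX1, another peroxidase, at percentile 98.0. The lowest 3 were SLC7A11, the cystine transporter, at 3.48, GSTM3, another transferase, at 3.47, and CHAC1, which degrades glutathione, at 0.84. GPX2, GPX7 and GGT1 were not among the genes of the table.

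The thioredoxin system held the highest and, with canonical lengths, the lowest of the 10 genes. With the union of exons GCLC took the lowest place, at 1.73 log2 CPM per kb, and with the length of the authors' table GCLC was at percentile 37.5 and SRXN1 at 40.8. TXNRD1 (ENSG00000198431, chromosome 12, 104215779 to 104350307, plus strand), the cytosolic thioredoxin reductase, had 10.05 log2 CPM, or 8.10 log2 CPM per kb, at percentile 98.2. It alone held 57.6% of the summed CPM of the 10 genes, which together made 0.183% of that of the table. SRXN1 (ENSG00000271303, chromosome 20, 646615 to 653200, minus strand), sulfiredoxin, which repairs over-oxidised peroxiredoxins, had 3.25 log2 CPM, or 1.91 log2 CPM per kb, at percentile 30.5. SRXN1 has a single annotated transcript of 2528 bases, so its value per kb was identical under each of the 3 definitions of length. Of the other reductases, TXNRD2, the mitochondrial enzyme, had 3.22 and TXNRD3, a related enzyme, had 1.13 log2 CPM per kb, which left TXNRD1 29.4-fold and 125-fold above them. The log2 difference of TXNRD1 from TXNRD2 was 4.88 with canonical lengths, 5.54 with the longest transcripts and 6.16 with the union of exons, and that from TXNRD3 lay between 6.54 and 6.97. All 14 further genes of the thioredoxin and peroxiredoxin list were in the table, with a median of 5.84 log2 CPM per kb. The list also holds genes of other kinds, such as SESN1 and SESN2. TXN, the substrate of TXNRD1, had 8.76, PRDX1 8.51 and PRDX6 7.60, and the lowest were SESN2 at 1.23, TXNRD3 and SESN1 at -0.21.

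NQO1 and HMOX1, which are widely used as readouts of NRF2, stood far apart. NQO1 (ENSG00000181019, chromosome 16, 69706996 to 69726668, minus strand), the quinone reductase, had 8.07 log2 CPM, or 6.74 log2 CPM per kb, at percentile 94.5. HMOX1 (ENSG00000100292, chromosome 22, 35380361 to 35394207, plus strand), the inducible haem oxygenase, had 3.43 log2 CPM, or 2.79 log2 CPM per kb, at percentile 45.5. NQO1 was 15.4-fold above HMOX1 per kb, and the log2 difference lay between 3.95 and 4.28 over the 3 lengths. The relatives were ordered in opposite ways. The log2 difference of NQO1 from NQO2, a related quinone reductase, was 0.76 with canonical lengths, 1.25 with the longest transcripts and 1.70 with the union of exons. That of HMOX1 from HMOX2, the constitutive haem oxygenase at 4.64 log2 CPM per kb, was -1.85. With the length of the authors' table, 11558 bases for NQO2 against a canonical 1073, NQO2 was at percentile 52.2 rather than 90.2. With the authors' lengths NQO1 was at percentile 96.1 and CBR1 at 82.0, so the place of NQO2 depends on the length used. Of 10 other genes on the list of quinone and aldo-keto reductases, 7 were in the table. The list also holds genes of other kinds, such as UGDH and OSGIN1. With canonical lengths the highest were AKR1B1 at 7.34 log2 CPM per kb, NQO2 at 5.98 and CBR1 at 5.42. UGDH had 3.99, OSGIN1 2.73 and AKR1C3 1.28 log2 CPM per kb, while AKR1B10, AKR1C1 and AKR1C2, which are often named as targets of NRF2, were not among the genes of the table. AKR1C genes resemble each other closely, and how reads shared between them were counted is not given in the sources used here.

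All 8 genes of haem and iron handling were in the table. The ferritin chains FTL and FTH1, which store iron, had 10.95 and 8.44 log2 CPM per kb, and TFRC, the transferrin receptor, had 6.94. HMOX2, FECH, which inserts iron into haem, at 2.21, and SLC40A1, the iron exporter, at -0.22 were the lowest. HMOX1 was above FECH and SLC40A1 and below the other 6.

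SOD2, the superoxide dismutase of mitochondria, acts on superoxide, and CAT, the catalase of peroxisomes, acts on hydrogen peroxide. CAT (ENSG00000121691, chromosome 11, 34438934 to 34472060, plus strand) had 5.78 log2 CPM, or 4.58 log2 CPM per kb, at percentile 75.3. SOD2 (ENSG00000112096, chromosome 6, 159669069 to 159745186, minus strand) had 6.69 log2 CPM, or 2.87 log2 CPM per kb, at percentile 47.0. SOD2 thus had more CPM than CAT and less per kb, and without a correction for length it was at percentile 84.3. Its canonical transcript has 14167 bases, of which 666 (4.70%) are coding. If shorter transcripts of SOD2 carry most of the reads, its level per kb is understated, and no value per transcript was at hand. SOD1, the cytosolic dismutase, had 7.64 log2 CPM per kb and SOD3, the extracellular enzyme, had 3.54. The log2 difference of SOD2 from SOD1 was -4.77 with canonical lengths, -3.98 with the union of exons and -3.80 with the longest transcripts, and that from SOD3 was -0.67, -0.52 and -0.67. CCS, the copper chaperone of SOD1, had 4.50 log2 CPM per kb.

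**Figure D3:**
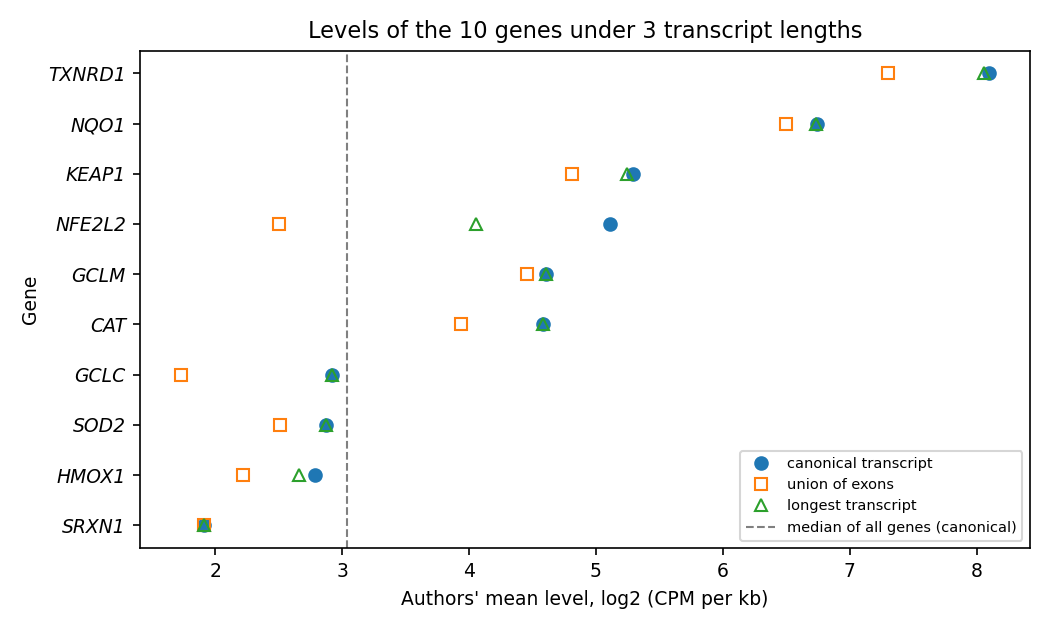
Authors' mean level of each of the 10 genes in log2 CPM per kb. Filled circles use the length of the canonical transcript, squares the union of exons and triangles the longest transcript. The dashed line is the median of all genes with canonical lengths, 3.04. The medians of all genes under the other lengths are not drawn, so the line serves the filled circles only. There are no error bars because the table gives 1 mean per gene. NFE2L2 spans 2.61 between canonical and union lengths and SRXN1 has 3 identical values.

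NADPH is the reductant on which the glutathione, thioredoxin and quinone reductases draw. All 6 genes of its supply were above the median of the table, with TKT at 7.86 and TALDO1 at 7.74 log2 CPM per kb the highest. PGD had 5.67, IDH1 4.13 and ME1, the cytosolic malic enzyme, 3.49. Over the 7 lists of the wider pathway, 64 of 71 genes were in the table and 53 (82.8%) were above its median, beside 6 of the 10 members (60.0%) and, by definition, 50.0% of all genes. The median percentile was 82.9 for the wider list and 75.5 for the 10 genes, an order that turned without a length correction, where it was 75.4 and 82.1. When the 74 genes of both were ranked together by level per kb, TXNRD1 was at rank 6, NQO1 at 22, KEAP1 at 34 and NFE2L2 at 37, and the others were between rank 41 for GCLM and 68 for SRXN1. These are descriptions of 1 mean per gene, without a test.

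**Figure D4:**
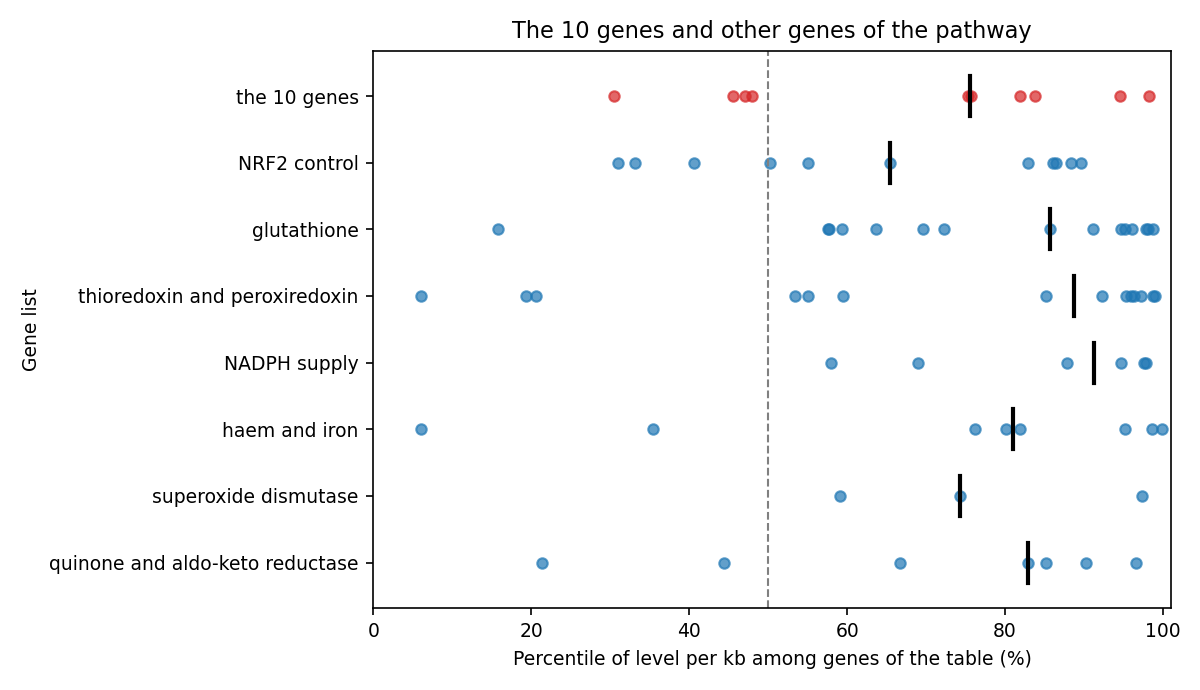
Percentile of the level per kb among genes of the table for the 10 genes (red) and for the 7 lists of other pathway genes (blue), with 1 point per gene, a black bar at the median of each list and a dashed line at 50%. The 10 genes fall into 6 at or above percentile 75.3 and 4 at or below 47.9, and all NADPH supply genes lie above 50%.

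Some members share their span with other genes of the table. SOD2 overlaps WTAP (5.65 log2 CPM), which is transcribed from the opposite strand, over 19602 bases, of which 437 are exonic in both. RPL18AP3, a pseudogene of a ribosomal protein on the same strand as TXNRD1, lies within TXNRD1 at 104265309 to 104265836 of chromosome 12 and had 9.20 log2 CPM, 55.6% of the CPM of TXNRD1. It shares 0 exonic bases with TXNRD1. AC089983.1, on the other strand of TXNRD1, had 1.42 log2 CPM and also shares 0 exonic bases with it. AC019080.1 overlaps NFE2L2 on the same strand, with 2037 exonic bases in common, and had 1.22 log2 CPM, 2.74% of the CPM of NFE2L2. The other 7 members overlap 0 genes of the table. The libraries were stranded, and whether the counting used strand is not given in the sources used here, so reads of SOD2 and WTAP in their shared exonic bases may not have been told apart. AC019080.1 and NFE2L2 lie on the same strand, and how reads in their shared bases were assigned is not given either.

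The labelled cell line was checked against marker genes. The 6 mesenchymal and basal genes VIM, CD44, AXL, EGFR, CAV1 and FN1 were all at or above percentile 75 per kb, from VIM at 9.34 to EGFR at 5.34 log2 CPM per kb. Neither ESR1 nor PGR, which encode the hormone receptors absent from triple-negative cells, nor the blood genes PTPRC, CD3E and HBB were among its genes. CDH1, an epithelial cadherin, was at percentile 23.3. The luminal keratin gene KRT19, however, was at percentile 97.8, against its place on the luminal list, and GATA3 and EPCAM were at 46.8 and 50.2.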

How the data were processed

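RNA-seq of 2 cordycepin and 2 DMSO samples of MDA-MB-231 Fluc cells was used. Per the paper's methods, the authors aligned the 75 bp paired-end reads to the human genome (GRCh38.p13) and used rsubread for counting, whereas the submitters' processing notes name TopHat, HTSeq, DESeq and Cufflinks. The authors' deposited table gives a mean log2 CPM per gene over the libraries and a gene length. The scaling, the filter on low counts and the offset behind the log2 CPM are not given in the sources used here. The summed CPM of the table was 1005540, more than plain CPM of a whole library can sum to. The table also holds 4 columns of the authors' own comparison (fold change, F statistic, p-value and adjusted p-value), which were not used. It has 0 columns of values per sample, so no test, SD or depth is given.

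Lengths came from GENCODE release 44, where 13922 gene IDs were found and 8 more, SOD2 among them, were matched by symbol. The authors' length was within 5% of the union of exons for 86.1% of genes. It equalled the union for 7 of the 10 members, the exceptions being NFE2L2, SOD2 and HMOX1. The code for percentiles was run on simulated data with known ranks, which checks its arithmetic only and not the choice of length. Named genes are the 10 members, overlapping genes, paralogs and the 3 highest and 3 lowest of each list of genes. Some genes of these lists are not reported here. CCS and the marker genes come from such lists, and NFE2L2 and SOD2 gene models are described because their values moved most. Members and lists were chosen with earlier results of these data known. Promoter windows were those of RefSeq. Values were computed in Python 3.11.15 with pandas 2.3.3 and numpy 2.4.6, and figures drawn with matplotlib 3.10.9.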

Additional observations from a re-analysis of the deposited data

How the results depend on the processing

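No paired analysis was possible because the table gives 1 mean per gene and no value per library, and for the same reason no replicate was left out and no other normalization or count filter was run. The median percentile of the 10 genes, 75.5, was 64.4 with the union of exons, 74.7 among protein-coding genes only and 82.1 without a length correction. That of the wider list, 82.9, was 80.2 with the union of exons, 81.5 with the longest transcripts, 75.4 without a length correction and 78.7 with the length of the authors' table, an alternative chosen after seeing the data. Of 45 pairs of members, 39 kept their order with the union of exons, 43 with the longest transcripts, 39 without a length correction and 40 with the length of the authors' table. Over the 6 settings, 6 members were above percentile 50 in each, HMOX1 and SRXN1 were below it in each, and GCLC (37.5 to 54.5) and SOD2 (45.0 to 84.3) were on both sides. NFE2L2 ranged from 52.1 to 81.9, and TXNRD1 from 98.0 to 99.5.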

Other observations

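The wider pathway lists were searched for the TGACNNNGC core in the same promoter windows. It was found for 16 of the 57 genes with a window (28.1%). They were GSTP1, GSTO1, MGST1, GPX2, GGT1 and SLC3A2 of the glutathione list and PGD, IDH1 and ME1 of NADPH supply. The rest were RBX1, SESN1, FECH, CCS, CBR1, EPHX1 and MAFF, a partner of NRF2. These genes were named after the search. The 57 genes include some that are not in the table, among them GPX2 and GGT1, which both hold a core. Over all genes of the table with a window, a set that is not the same in kind, the share was 19.5%. No test was made of the difference, and the levels of genes with and without a core were not compared.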
